A study of Mus musculus with 8 samples.

Results

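Cyclic AMP (cAMP) is the second messenger made by adenylyl cyclases, destroyed by cyclic nucleotide phosphodiesterases (PDEs) and read by protein kinase A (PKA). The genes described here are 10 genes of that cycle, chosen by name from the 47937 genes counted: the cAMP-specific phosphodiesterases Pde4a, Pde4b, Pde4d, Pde7a and Pde8a, the adenylyl cyclases Adcy3, Adcy7 and Adcy9, and the PKA subunits Prkar1a and Prkaca. The rule that names them uses no measured value. All 10 were found in the count tables, and 9 of the 10 had enough reads to be tested, the exception being Adcy3. RNA was sequenced in bulk from mouse bone marrow-derived dendritic cells (BMDCs), which are grown from bone marrow with the growth factor GM-CSF over 8 days. WT cells came from Cre-negative mice, and the cells labelled Grk 3xKO (3xGrk-/-) came from mice with floxed alleles of Grk2 and Grk6 (fl/fl), a germline Grk3-/- deletion and Vav-iCre, a Cre active from early blood cell precursors on, so that 3 G protein-coupled receptor kinase genes were targeted. The mice were adults and the WT controls were matched for age and sex. Cells of each genotype were left untreated (unstimulated) or received LPS, a component of the bacterial outer membrane that matures dendritic cells, at 20 ng/ml for 1 day, with GM-CSF present in all groups. Each of the 4 groups has 2 libraries, and the libraries hold between 4713305 and 6933358 reads assigned to genes. The source of the libraries is described as technical replicates and separate cultures are not stated, so the p-values below measure the spread between libraries, which may be technical.

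In leukocytes, receptors that couple to the stimulatory G protein, such as those for prostaglandin E2 and adenosine, switch on adenylyl cyclases. The cAMP they make releases the catalytic subunits of PKA from their regulatory subunits, and PKA phosphorylates, among others, the transcription factor CREB, which binds the cAMP response element (CRE). PDE4 enzymes are the main cAMP-degrading enzymes of many immune cells and are the targets of rolipram and roflumilast. PDE7 and PDE8 enzymes also degrade cAMP but are not blocked by rolipram. G protein-coupled receptor kinases phosphorylate activated receptors, which ends their coupling to G proteins.

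Promoter sequences of 5 genes that differed between the genotypes or after LPS are shown because the CRE is the element through which CREB acts. The RefSeq table (GRCm38.p6) held 23 windows for 9 of the 10 genes, each from 250 bases before to 50 bases after an annotated start. The letters TGACGTCA (the CRE) were found on either strand in 2 of the 23 windows and in 1.79% of all 32851 windows of the table. These 2 are overlapping windows of Prkar1a that hold the same CRE, so the members have 1 such site. The shorter core TGACG, which also lies within the CRE, was found in 9 of the 23 windows and in 20.81% of all windows. These 9 belong to 7 genes, beside 23.05% of all genes of the table. The members have more windows per gene (23 for 9 genes) than the table (32851 for 27025), which favours a match. The 2 overlapping windows of Prkar1a hold the same cores. The NF-kB site consensus was found in 0 of the 23 windows and in 1.629% of all windows. A match describes letters, not a bound site. In the sequences below, capitals mark the CRE or its core, read 5′ to 3′ on the strand of the gene. The first 3 are the 250 bases before the annotated start of Pde8a (chr7:81213015-81213264, plus strand, core at -84), Adcy9 (chr16:4420499-4420748, minus strand, core at -24) and Adcy7 (chr8:88282742-88282991, plus strand, core on the other strand at -28).
Pde8a: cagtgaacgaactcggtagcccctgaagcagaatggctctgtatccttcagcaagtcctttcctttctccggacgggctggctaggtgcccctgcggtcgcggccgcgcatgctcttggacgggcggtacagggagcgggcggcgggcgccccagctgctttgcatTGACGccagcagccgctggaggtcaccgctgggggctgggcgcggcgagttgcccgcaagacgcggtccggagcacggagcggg
Adcy9: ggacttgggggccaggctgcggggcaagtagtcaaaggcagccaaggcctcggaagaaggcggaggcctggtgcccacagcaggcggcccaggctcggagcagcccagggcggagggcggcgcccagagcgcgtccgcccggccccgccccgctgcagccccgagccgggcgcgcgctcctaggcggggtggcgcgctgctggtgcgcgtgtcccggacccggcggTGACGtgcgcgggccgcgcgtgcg
Adcy7: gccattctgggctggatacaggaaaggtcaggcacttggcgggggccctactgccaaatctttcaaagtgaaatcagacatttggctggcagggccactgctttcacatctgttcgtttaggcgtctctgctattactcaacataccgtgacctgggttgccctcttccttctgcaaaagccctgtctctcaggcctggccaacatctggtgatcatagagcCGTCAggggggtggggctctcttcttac
The last 2 are 30-base stretches around a match in Prkar1a (chr11:109650889-109650918, plus strand, CRE at -49) and Pde4b (chr4:102421509-102421538, plus strand, core on the other strand at -34). The starts used for Adcy9 and Adcy7 are also transcript starts in GENCODE M21, whereas those used for Pde8a, Prkar1a and Pde4b have no M21 transcript start within 20 bases.
Prkar1a: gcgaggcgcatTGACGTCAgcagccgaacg
Pde4b: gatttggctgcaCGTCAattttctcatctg

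The targeted kinases were checked first. Levels are given as CPM, the counts per 1000000 reads of a library size scaled by TMM. Without LPS, Grk2 had 320 and 321 CPM in WT libraries against 151 and 146 CPM in 3xGrk-/- libraries (log2 fold change -1.11), and with LPS the log2 fold change was -1.89. Grk6 was lower by the same comparisons, with log2 fold changes of -1.19 and -1.54, and Grk3 with -0.36 and -0.42. Counts over a whole gene include exons outside a deletion. Marker levels were summed per library. Conventional dendritic cell markers (10 genes) lay between 13650 and 13684 CPM in unstimulated WT libraries, 6227 and 6313 CPM in unstimulated 3xGrk-/-, 9545 and 10179 CPM in LPS-stimulated WT and 7623 and 7793 CPM in LPS-stimulated 3xGrk-/- libraries. Macrophage markers (10 genes) lay between 1018 and 1045, 1500.2 and 1555, 407 and 413, and 2787 and 2847 CPM in the same order. Of these 10 macrophage markers 5 were higher and 4 lower in unstimulated 3xGrk-/- cells, and 10 were higher after LPS. Of the 10 conventional dendritic cell markers 2 were higher and 8 lower unstimulated, and 1 was higher and 9 lower after LPS. Among all genes tested 22.1% were higher and 22.7% lower unstimulated, and 24.7% and 24.0% after LPS. Eosinophil markers (8 genes) summed to between 1257 and 1330.5, 67.0 and 74.5, 1149.6 and 1251, and 82.9 and 88.9 CPM. Neutrophil markers (10 genes) lay between 721 and 766, 531 and 546, 340 and 396, and 188 and 205 CPM, and mast cell and basophil markers (8 genes) between 81.8 and 82.3, 99.0 and 102, 146 and 158, and 334 and 347 CPM. The last rise was that of Hdc, which alone was at 254 and 259 CPM in LPS-stimulated 3xGrk-/- against 55.0 and 56.5 CPM in LPS-stimulated WT libraries. In this comparison 7 mast cell and basophil markers were tested, of which 3 were lower, 3 were not called and 1 was higher. Among all genes tested 24.0% were lower and 24.7% higher. The lower marker Ms4a2 had enough reads only in WT cells, which favours a difference, so its call supports nothing here. Lymphocyte markers lay between 0.150 and 1.70 CPM over all libraries, with Ncr1, Cd3e or other members listed at 0 in each group. These shifts ran with genotype and LPS, and their part in the results on the cAMP genes was not tested. In bulk RNA, fewer cells of a type and less RNA per cell cannot be told apart.

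Across the 10 genes, the regulatory PKA subunit Prkar1a had the highest level per length of merged exons and Adcy3 the lowest. In unstimulated WT cells, on the scale of CPM per kilobase, Prkar1a was at 60.5 ± 1.57, Adcy7 at 33.0 ± 0.150, Prkaca at 23.9 ± 1.10 and Pde4b at 13.0 ± 0.157 (SD, n = 2 libraries). Pde8a followed at 5.53 ± 0.211, Pde7a at 3.64 ± 0.124, Pde4a at 2.84 ± 0.0689, Pde4d at 1.55 ± 0.0604, Adcy9 at 0.781 ± 0.456 and Adcy3 at 0.0490 ± 0.0260. The libraries of neighbours in this order did not overlap. After LPS the order in WT cells changed below Prkar1a: Pde4b, at 42.3 ± 0.0859 CPM per kilobase, stood above Adcy7 at 17.0 ± 1.12 and Prkaca at 23.1 ± 0.694.

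**Figure D1:**
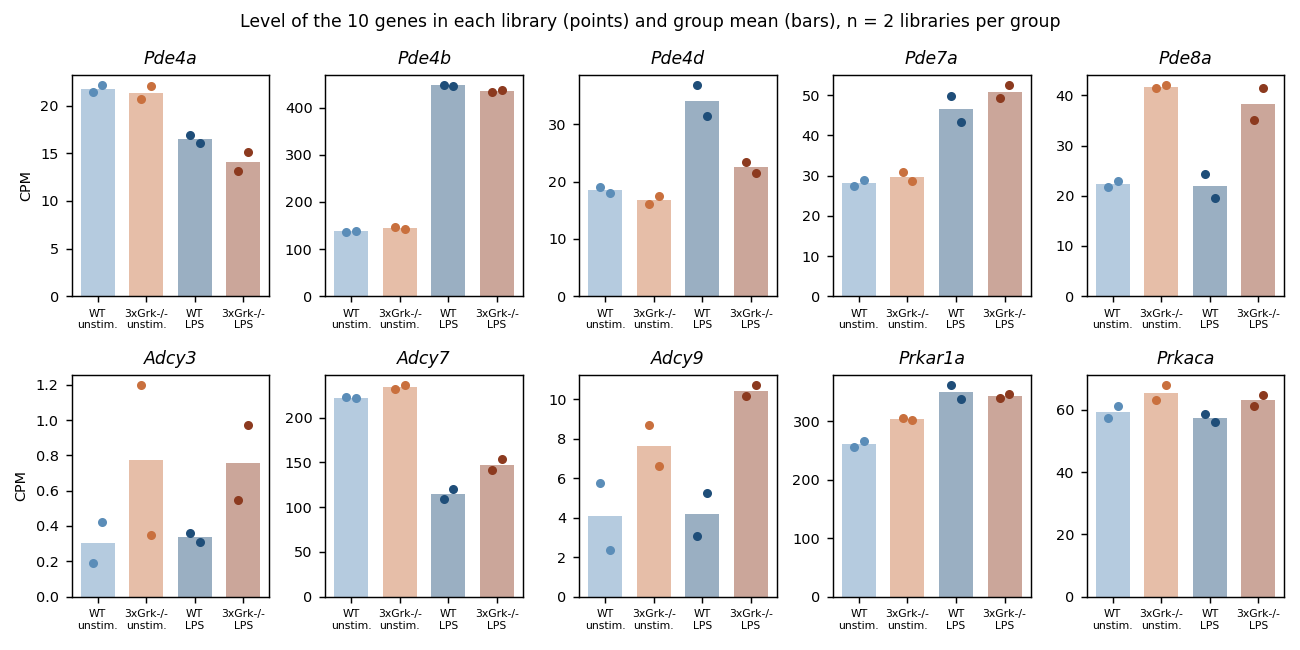
Level of each of the 10 genes in TMM-scaled CPM in the 2 libraries (points) of each of the 4 groups, with the group mean as a bar starting at 0. Pde4b stands between 433.6 and 448 CPM in the 4 LPS libraries and between 136 and 147 CPM in the 4 unstimulated ones, while Pde8a is higher in both 3xGrk-/- groups than in both WT groups.

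Unstimulated 3xGrk-/- cells differed from WT cells in 3 of the 9 tested genes, all higher: the phosphodiesterase Pde8a, the cyclase Adcy9 and the PKA subunit Prkar1a. None of the 9 was lower. Of all 12000 genes tested, 44.7% were called at an adjusted p under 0.05 (22.1% higher and 22.7% lower). The libraries of the 2 genotypes did not overlap for 7 of the 9 genes, and for 69.1% of all genes tested. A called change of at least 1 on the log2 scale was seen for 1 of the 9, Adcy9, and for 12.0% of all genes. The median log2 fold change was 0.08 over the 9 genes and -0.0017 over all genes. Tests were edgeR quasi-likelihood tests on counts, with p-values adjusted by Benjamini-Hochberg over all genes tested. With library sizes scaled by total reads alone, the split of all calls moved from 49.3% higher to 35.8% higher, and the median over all genes to -0.09, while the number of the 9 genes called stayed at 3.

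After LPS, 4 of the 9 genes differed between the genotypes: Pde8a, Adcy9 and Adcy7 were higher and the phosphodiesterase Pde4d was lower in 3xGrk-/- cells. Of all 11830 genes tested, 48.6% were called (24.7% higher and 24.0% lower). Libraries did not overlap for 7 of 9 genes and for 72.6% of all genes. Again 1 of the 9, Adcy9, changed by at least 1, against 16.8% of all genes. The median log2 fold change was 0.14 over the 9 genes and -0.0066 over all genes. Scaling by total reads moved the split of all calls from 50.7% to 40.9% higher and the median over all genes to -0.09, with 4 of the 9 genes still called.

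**Figure D2:**
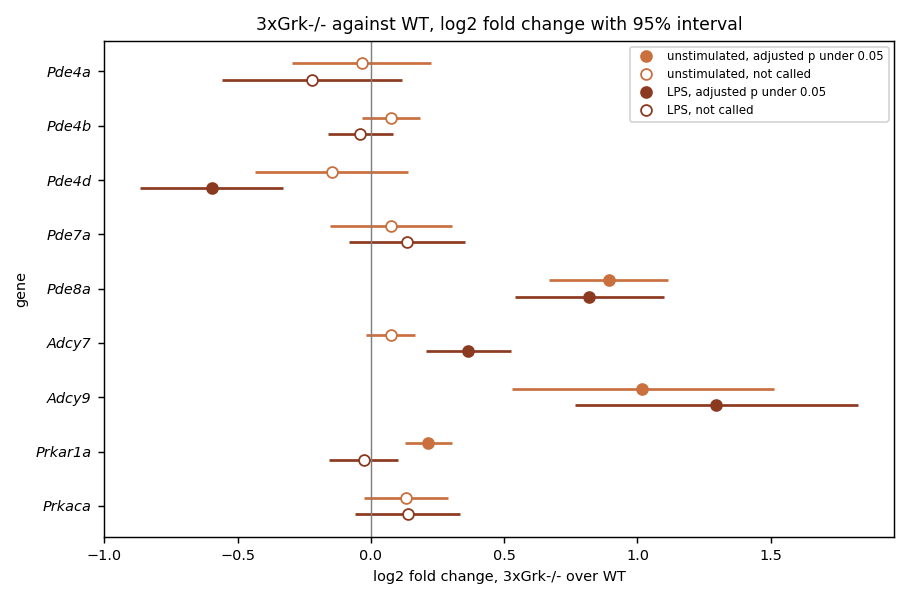
Log2 fold change of 3xGrk-/- over WT with its 95% interval for the 9 tested genes, in unstimulated and LPS-stimulated cells, filled where the adjusted p was under 0.05. Pde8a and Adcy9 lie to the right of 0 in both conditions (0.89 and 0.82, 1.02 and 1.29), and Pde4d and Adcy7 are called after LPS alone (-0.60 and 0.36).

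Pde8a, a high-affinity cAMP phosphodiesterase (chromosome 7, 81213596 to 81334533, plus strand, GRCm38), was higher in 3xGrk-/- cells in both conditions. It was at 21.8 and 23.0 CPM in unstimulated WT libraries, 41.4 and 42.0 CPM in unstimulated 3xGrk-/-, 24.3 and 19.5 CPM in LPS-stimulated WT and 35.1 and 41.5 CPM in LPS-stimulated 3xGrk-/- libraries. All 4 3xGrk-/- libraries were above all 4 WT libraries, and within each genotype the LPS libraries overlapped the unstimulated ones. The log2 fold change between genotypes was 0.89 (SE 0.114, adjusted p = 3.81e-14), a 1.86-fold difference, in unstimulated cells and 0.82 (SE 0.134, adjusted p = 2.99e-05), or 1.76-fold, after LPS. LPS itself gave log2 fold changes of -0.05 in WT (95% interval -0.33 to 0.23) and -0.12 in 3xGrk-/- cells (-0.34 to 0.11), neither called. The genotype effect did not differ detectably between the conditions, with an interaction of -0.07 (95% interval -0.43 to 0.29, adjusted p = 0.799). The count of reads behind these values was 114 to 277 per library.

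Pde4b, the PDE4 gene that monocytes and macrophages are known to induce with LPS (chromosome 4, 102087543 to 102607259, plus strand), had the largest rise with LPS among the 9 tested genes in both genotypes. It was at 136 and 139 CPM in unstimulated WT libraries, 147 and 144 CPM in unstimulated 3xGrk-/-, 448 and 447 CPM in LPS-stimulated WT and 433.6 and 436 CPM in LPS-stimulated 3xGrk-/- libraries. Every LPS library was above every unstimulated library. The log2 fold change with LPS was 1.70 (SE 0.0541, adjusted p = 1.15e-20) in WT and 1.58 (SE 0.0538, adjusted p = 4.39e-20) in 3xGrk-/- cells, or 3.25-fold and 3.00-fold. The difference of these responses was -0.12 (95% interval -0.27 to 0.04, adjusted p = 0.267). Between genotypes the log2 fold change was 0.08 (95% interval -0.03 to 0.19) unstimulated and -0.04 (-0.16 to 0.08) after LPS, neither called.

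Pde4d, another PDE4 gene (chromosome 13, 108449948 to 109953461, plus strand), rose with LPS in both genotypes and ended lower in 3xGrk-/- cells. Its levels were 19.1 and 18.1 CPM in unstimulated WT libraries, 16.0 and 17.5 CPM in unstimulated 3xGrk-/-, 36.8 and 31.4 CPM in LPS-stimulated WT and 23.5 and 21.6 CPM in LPS-stimulated 3xGrk-/- libraries. The LPS-stimulated WT libraries were above all others, and both LPS-stimulated 3xGrk-/- libraries were above all unstimulated ones. With LPS it rose by 0.87 on the log2 scale (SE 0.124, adjusted p = 6.77e-07) in WT and by 0.43 (SE 0.138, adjusted p = 0.0105) in 3xGrk-/- cells, and the log2 difference between genotypes after LPS was -0.60 (SE 0.129, adjusted p = 0.000583). The unstimulated difference of -0.15 (95% interval -0.43 to 0.14) was not called. The difference of the responses, -0.45 (95% interval -0.83 to -0.06), had an adjusted p of 0.0683 and passed only without LPS-stimulated WT library 2 (-0.57, adjusted p = 0.0211). The rise in 3xGrk-/- cells was not called without unstimulated 3xGrk-/- library 1 (adjusted p = 0.0969) or LPS-stimulated 3xGrk-/- library 1 (adjusted p = 0.0760), nor with DESeq2 (adjusted p = 0.0821) or scaling by total reads (0.21, adjusted p = 0.207).

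Pde4a, the third PDE4 gene (chromosome 9, 21165714 to 21213248, plus strand), fell with LPS. It was at 21.4 and 22.1 CPM in unstimulated WT libraries, 20.6 and 22.1 CPM in unstimulated 3xGrk-/-, 16.9 and 16.1 CPM in LPS-stimulated WT and 13.1 and 15.1 CPM in LPS-stimulated 3xGrk-/- libraries. Every LPS library was below every unstimulated one, and the genotypes overlapped without LPS. The LPS response on the log2 scale was -0.41 (SE 0.135, adjusted p = 0.0112) in WT and -0.59 (SE 0.141, adjusted p = 0.000789) in 3xGrk-/- cells. The WT call was lost without unstimulated WT library 2 (adjusted p = 0.0759), without LPS-stimulated WT library 2 (adjusted p = 0.0665) and with DESeq2 (adjusted p = 0.117). Genotype differences of -0.03 (95% interval -0.30 to 0.23) unstimulated and -0.22 (-0.56 to 0.12) after LPS were not called.

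Pde7a (chromosome 3, 19223108 to 19311322, minus strand), which encodes a rolipram-insensitive cAMP phosphodiesterase of lymphoid and other cells, rose with LPS in both genotypes. Its levels were 27.5 and 28.9 CPM in unstimulated WT libraries, 30.8 and 28.7 CPM in unstimulated 3xGrk-/-, 49.7 and 43.3 CPM in LPS-stimulated WT and 49.3 and 52.5 CPM in LPS-stimulated 3xGrk-/- libraries. The genotypes overlapped in both conditions, and the LPS libraries were all above the unstimulated ones. With LPS it rose by 0.71 on the log2 scale (SE 0.108, adjusted p = 1.75e-06) in WT and by 0.77 (SE 0.105, adjusted p = 3.84e-07) in 3xGrk-/- cells. Genotype differences of 0.08 (95% interval -0.15 to 0.30) unstimulated and 0.14 (-0.08 to 0.35) after LPS were not called.

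Added up per length, the PDE4 genes were dominated by Pde4b, and LPS raised its part further. The summed level of Pde4a, Pde4b and Pde4d was 17.4 ± 0.165 CPM per kilobase in unstimulated WT and 17.9 ± 0.0203 in unstimulated 3xGrk-/- cells, and 47.3 ± 0.478 and 44.9 ± 0.268 after LPS (SD, n = 2). Pde4b made up 74.8% ± 0.190 and 76.7% ± 1.20 of this sum without LPS, and 89.5% ± 0.721 and 91.7% ± 0.113 with LPS. Over all 5 phosphodiesterases the sum was 26.6 ± 0.500 in unstimulated WT, 32.1 ± 0.0746 in unstimulated 3xGrk-/-, 58.8 ± 1.90 in LPS-stimulated WT and 60.9 ± 1.69 CPM per kilobase in LPS-stimulated 3xGrk-/- cells. Pde8a supplied 20.8% ± 0.401 of that sum in unstimulated WT and 32.2% ± 0.394 in unstimulated 3xGrk-/- cells, and 9.20% ± 1.14 and 15.5% ± 1.41 after LPS. The unstimulated sums over all 5 genes were further apart between the 2 genotypes than their spread, and the LPS sums over all 5 overlapped. The PDE4 sums did not overlap between the genotypes in either condition, with 3xGrk-/- libraries slightly higher unstimulated and lower after LPS. These sums describe RNA, were not tested, and use exons merged over all isoforms.

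**Figure D3:**
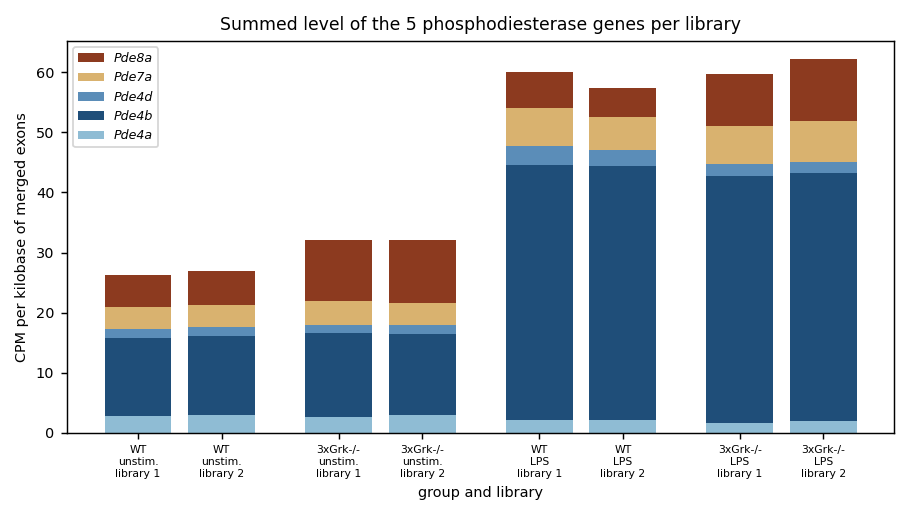
Summed level of the 5 phosphodiesterase genes in each library, in CPM per kilobase of merged exons, stacked by gene from 0. The sum rises from between 26.2 and 32.1 without LPS to between 57.4 and 62.1 with LPS, mostly through Pde4b (dark blue), and Pde8a (brown, on top) is thicker in the 3xGrk-/- libraries.

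Among these 3 cyclases, Adcy7 had the highest level and showed the clearest difference in response. Adcy7 (chromosome 8, 88272403 to 88329962, plus strand) encodes a cyclase of blood cells that G protein beta-gamma subunits can enhance. It was at 223 and 222 CPM in unstimulated WT libraries, 232 and 236 CPM in unstimulated 3xGrk-/-, 109 and 119.9 CPM in LPS-stimulated WT and 142 and 154 CPM in LPS-stimulated 3xGrk-/- libraries. All LPS libraries were below all unstimulated ones, and after LPS both 3xGrk-/- libraries were above both WT libraries. The log2 fold change with LPS was -0.95 (SE 0.0618, adjusted p = 1.12e-13) in WT and -0.66 (SE 0.0599, adjusted p = 1.67e-10) in 3xGrk-/- cells. The difference of the responses was 0.29 (SE 0.0862, adjusted p = 0.00977). The 3xGrk-/- level was higher by 0.36 on the log2 scale (SE 0.0761, adjusted p = 0.000427) after LPS, and 0.07 (95% interval -0.02 to 0.17) unstimulated, which was not called. The difference of the responses was not called with DESeq2 (adjusted p = 0.0646) or without LPS-stimulated 3xGrk-/- library 2 (0.23, adjusted p = 0.114).

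Adcy9 (chromosome 16, 4287529 to 4420498, minus strand), which encodes a cyclase that forskolin activates poorly, was higher in 3xGrk-/- cells in both conditions at low counts. Its counts were 30 and 17 in unstimulated WT, 58 and 38 in unstimulated 3xGrk-/-, 17 and 34 in LPS-stimulated WT and 56 and 66 in LPS-stimulated 3xGrk-/- libraries. On the CPM scale these were 5.73 and 2.38, 8.68 and 6.60, 3.08 and 5.26, and 10.2 and 10.7, so that no 3xGrk-/- library was below a WT library of either condition. Between genotypes it differed by 1.02 on the log2 scale (SE 0.251, adjusted p = 0.000186) without LPS and by 1.29 (SE 0.254, adjusted p = 0.000229) with it. The pooled counts gave ratios of 2.03 (95% counting interval 1.42 to 2.94) and 2.45 (1.76 to 3.47), which cover counting error only. The unstimulated difference was 1.69 (adjusted p = 3.79e-06) without WT library 1 and 0.42 (adjusted p = 0.282) without WT library 2, and the call was lost in the latter case and with DESeq2 (adjusted p = 0.123). LPS gave log2 fold changes of 0.16 (95% interval -0.55 to 0.87) in WT and 0.44 (-0.05 to 0.93) in 3xGrk-/- cells, neither called.

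Adcy3 (chromosome 12, 4133103 to 4213525, plus strand), best known from olfactory neurons and primary cilia, was close to absent. It had 1 and 3 counts in unstimulated WT, 8 and 2 in unstimulated 3xGrk-/-, 2 and 2 in LPS-stimulated WT and 3 and 6 in LPS-stimulated 3xGrk-/- libraries. No difference was detectable at this depth, with pooled ratios of 3xGrk-/- over WT of 2.49 (95% counting interval 0.717 to 10.9) unstimulated and 2.31 (0.644 to 10.3) after LPS. Its exons share 1380 bases with Cenpo on the opposite strand, and the strand setting of the counting is not given in the sources used here, so its few reads are uncertain. Of the summed level of the 3 cyclases per length, Adcy7 made up 97.6% ± 1.23 in unstimulated WT, 95.6% ± 1.05 in unstimulated 3xGrk-/-, 95.3% ± 1.25 in LPS-stimulated WT and 91.1% ± 0.0156 in LPS-stimulated 3xGrk-/- cells.

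The regulatory PKA subunit Prkar1a (chromosome 11, 109649405 to 109669656, plus strand), which holds the catalytic subunit inactive until cAMP binds, was higher in unstimulated 3xGrk-/- cells and did not differ detectably after LPS. It was at 257 and 266 CPM in unstimulated WT libraries, 306 and 302 CPM in unstimulated 3xGrk-/-, 361 and 337 CPM in LPS-stimulated WT and 339.8 and 346 CPM in LPS-stimulated 3xGrk-/- libraries. Unstimulated WT was the lowest group, unstimulated 3xGrk-/- lay above it, and both LPS groups lay above these and overlapped. The genotype difference was 0.22 on the log2 scale (SE 0.0447, adjusted p = 7.01e-06), a 1.16-fold change, unstimulated, and -0.03 (95% interval -0.16 to 0.10) after LPS. LPS raised the level by 0.42 (SE 0.0537, adjusted p = 1.29e-07) in WT and by 0.17 (SE 0.0533, adjusted p = 0.00700) in 3xGrk-/- cells, and the responses differed by -0.24 (SE 0.0756, adjusted p = 0.0139). The rise in 3xGrk-/- cells reversed with scaling by total reads (-0.04) and was not called without unstimulated 3xGrk-/- library 2 (adjusted p = 0.0598) or LPS-stimulated 3xGrk-/- library 2 (adjusted p = 0.0569). The difference of the responses was not called with DESeq2 (adjusted p = 0.0570), nor without unstimulated WT library 1 (adjusted p = 0.109), unstimulated 3xGrk-/- library 1 (adjusted p = 0.0647) or LPS-stimulated 3xGrk-/- library 1 (adjusted p = 0.0597).

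The catalytic PKA subunit Prkaca (chromosome 8, 83972993 to 83996443, plus strand) passed no test with TMM scaling. It was at 57.5 and 61.4 CPM in unstimulated WT libraries, 63.3 and 67.9 CPM in unstimulated 3xGrk-/-, 58.6 and 56.2 CPM in LPS-stimulated WT and 61.3 and 64.9 CPM in LPS-stimulated 3xGrk-/- libraries. The 3xGrk-/- libraries were above the WT libraries of the same condition by a small margin. The log2 differences between genotypes were 0.13 (95% interval -0.03 to 0.29, adjusted p = 0.177) unstimulated and 0.14 (-0.06 to 0.34, adjusted p = 0.244) after LPS. LPS gave -0.06 (95% interval -0.23 to 0.12) in WT and -0.05 (-0.22 to 0.12) in 3xGrk-/- cells.

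Counted together, LPS changed 6 of the 9 tested genes in WT cells, with 4 higher (Pde4b, Pde4d, Pde7a and Prkar1a) and 2 lower (Pde4a and Adcy7). Of all 12541 genes, 60.3% were called in WT (29.5% higher and 30.8% lower), and libraries did not overlap for 6 of 9 genes and for 78.2% of all genes. In 3xGrk-/- cells 4 genes were higher and 2 lower as well, and these were the 6 genes called in WT. Among all genes 55.4% were called in 3xGrk-/- cells (28.0% higher and 27.4% lower), and libraries did not overlap for 7 of 9 genes and for 77.6% of all genes. A response of at least 1 on the log2 scale was called for 1 of the 9 genes, Pde4b, in both genotypes, and for 21.5% of all genes in WT and 18.9% in 3xGrk-/- cells. The median response was 0.16 over the 9 genes in WT and 0.17 in 3xGrk-/- cells, beside -0.01 and -0.0072 over all genes. The responses differed between the genotypes for 2 of the 9 genes, Adcy7 (higher) and Prkar1a (lower), and for 32.5% of all genes (16.5% higher and 16.0% lower), with a difference of at least 1 for 0 of the 9 genes and 11.0% of all genes. Scaling by total reads moved the split of all calls from 49.0% to 31.1% higher in WT and from 50.5% to 30.2% higher in 3xGrk-/- cells, with medians over all genes of -0.23 in both. Under that scaling Prkaca was lower with LPS in WT (-0.27, adjusted p = 0.00733) and in 3xGrk-/- cells (-0.27, adjusted p = 0.00644), about the size of the shift of all genes. Pde8a was lower in 3xGrk-/- cells (-0.34, adjusted p = 0.00907), larger than that shift, and was at -0.12 and not called with TMM scaling. Whether the unstimulated and LPS libraries were sequenced together is not stated, so LPS and a sequencing run cannot be told apart.

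**Figure D4:**
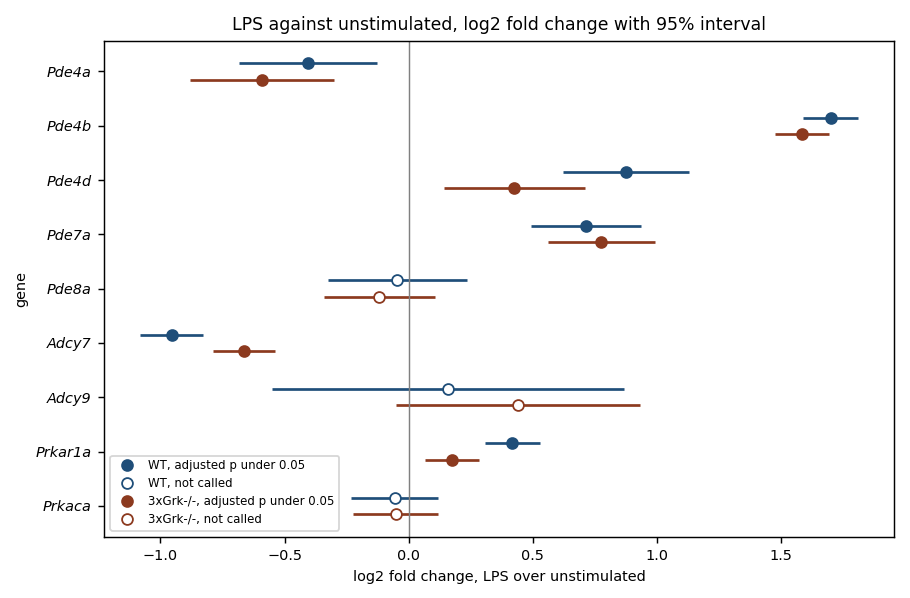
Log2 fold change of LPS-stimulated over unstimulated cells with its 95% interval for the 9 tested genes, in WT (blue) and 3xGrk-/- cells (brown), filled where the adjusted p was under 0.05. Pde4b lies farthest to the right (1.70 and 1.58) and Adcy7 farthest to the left in WT (-0.95, against -0.66 in 3xGrk-/- cells).

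The genes whose log2 CPM ran most like that of each member over the 8 libraries, out of 9150 genes with a mean of at least 3, are a description only, since the 8 libraries form 4 groups and many genes share a pattern of group means. For Pde4b these were Dtx3l (Pearson r = 0.999), Sema7a (0.999) and Oas3 (0.999), for Pde8a Eif4g2 (0.993), Osbpl8 (0.990) and Ripk3 (0.985), and for Adcy7 Bud23 (0.998), Gpi1 (0.997) and Nfam1 (0.995). For Pde4d they were G3bp2 (0.995), Amn1 (0.993) and Senp5 (0.993), for Pde4a Tbca (0.992), Lpgat1 (0.990) and Clns1a (0.989), and for Pde7a Rbm5 (0.995), Sfmbt1 (0.992) and Fnbp4 (0.992). Adcy9 was most like Kctd6 (0.968), 2900097C17Rik (0.968) and Inpp5e (0.961), Prkar1a like Hipk2 (0.995), Ascc3 (0.994) and Rabgap1l (0.994), and Prkaca like Eea1 (0.959), Lactb2 (0.955) and Crispld2 (0.954). Among the members themselves, Pde4b ran with Pde7a (r = 0.977) and against Adcy7 (r = -0.948), and Pde8a ran with Prkaca (r = 0.891).

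The rest of the pathway was described by lists of genes not among the 10. Counts called in a list stand beside shares over all genes tested of 44.7% (unstimulated) and 48.6% (LPS). Of 11 further cAMP phosphodiesterases, 10 were in the tables and Pde2a was not analysed here. In unstimulated cells 5 were tested, and 3 of these (Pde1c, Pde7b and Pde8b) had enough reads in both libraries of only 1 genotype. After LPS 6 were tested, and 4 of these (Pde7b, Pde8b, Pde10a and Pde11a) had enough reads only in 3xGrk-/- cells. Testing a gene only through the group in which it is high favours a difference, so the calls in this list are not counted and the genes are given by their values. Pde1c was the lower in unstimulated 3xGrk-/- libraries, with 11 and 4 counts against 13 and 18 in unstimulated WT. After LPS it had 0 and 2 counts in WT and 3 and 2 in 3xGrk-/- libraries. Pde7b, the paralog of Pde7a, had 0 and 2 counts in unstimulated WT, 29 and 27 in unstimulated 3xGrk-/-, 6 and 4 in LPS-stimulated WT and 126 and 123 in LPS-stimulated 3xGrk-/- libraries. The ratio of 3xGrk-/- over WT was 27.8 (95% counting interval 7.35 to 235) unstimulated and 25.6 (13.7 to 53.9) after LPS, although even its highest level per length, 1.72 ± 0.168 CPM per kilobase, was below that of Pde7a, 6.57 ± 0.298, in the same libraries. Pde11a had 22 and 23 counts in LPS-stimulated 3xGrk-/- libraries against 3 and 2 in LPS-stimulated WT (ratio 9.24, 3.68 to 29.8), and at most 1 in any unstimulated library. Pde8b, the paralog of Pde8a, had 27 and 40 counts in LPS-stimulated 3xGrk-/- against 4 and 7 in LPS-stimulated WT libraries (ratio 6.25, 3.28 to 13.1). Pde10a was at 0 in both unstimulated 3xGrk-/- libraries and at 10 and 14 counts after LPS, at least 4.22-fold higher against a floor of 3 counts per library. In WT it had 1 and 2 counts unstimulated and 3 and 7 after LPS.

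Pde1b, a calcium-calmodulin dependent phosphodiesterase, was the most abundant of these. Its level was 35.4 ± 0.900 CPM per kilobase in unstimulated WT and 51.3 ± 1.31 in unstimulated 3xGrk-/- cells, against 28.2 ± 4.47 and 28.0 ± 0.319 after LPS. Among the phosphodiesterases listed it was thus above Pde4b without LPS and below it with LPS. The genotype difference was 0.53 on the log2 scale (adjusted p = 5.68e-28) unstimulated and the responses to LPS differed by -0.54 (adjusted p = 7.87e-05). Pde3b, the cGMP-inhibited form, was lower in unstimulated 3xGrk-/- cells by a log2 fold change of -0.59 (adjusted p = 0.000259), a call that DESeq2 did not give (adjusted p = 0.0573).

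Of 7 further adenylyl cyclases only Adcy6, a cyclase inhibited by calcium and by inhibitory G proteins, was tested. Per length it was the most abundant cyclase, at 88.4 ± 0.493 CPM per kilobase in unstimulated WT, 95.3 ± 1.41 in unstimulated 3xGrk-/-, 151 ± 2.80 in LPS-stimulated WT and 104 ± 3.72 in LPS-stimulated 3xGrk-/- cells. In WT cells it rose with LPS by 0.77 on the log2 scale (adjusted p = 2.23e-14) where Adcy7 fell. In 3xGrk-/- cells the rise was 0.13 (adjusted p = 0.0209), which turned to -0.09 with scaling by total reads and was not called without unstimulated 3xGrk-/- library 1 or 2 (adjusted p = 0.0588 and 0.145) or LPS-stimulated 3xGrk-/- library 1 (adjusted p = 0.216). The responses of Adcy6 differed by -0.65 (SE 0.0658, adjusted p = 6.68e-09) and after LPS it was lower in 3xGrk-/- cells, at -0.54 on the log2 scale (SE 0.0556, adjusted p = 5.73e-08), the opposite direction to Adcy7 at 0.36 and Adcy9 at 1.29. The unstimulated difference was 0.11 (adjusted p = 0.0103) and was not called with DESeq2 (adjusted p = 0.0837), with scaling by total reads (0.02, adjusted p = 0.654), in a fit of all 8 libraries (adjusted p = 0.0693), without WT library 2 (adjusted p = 0.0742) or without 3xGrk-/- library 1 (adjusted p = 0.0955).

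Of 7 further PKA subunits and PKA inhibitors 5 were tested. In unstimulated cells 1 was higher and 1 lower (median -0.06), and after LPS none was higher and 1 lower (median -0.04). Prkar2a, a type II regulatory subunit, was lower in unstimulated 3xGrk-/- cells (-0.43, adjusted p = 1.04e-12). Prkar2a fell with LPS in WT (-0.87, adjusted p = 3.15e-11) and less in 3xGrk-/- cells (-0.48, adjusted p = 4.37e-06), a difference of 0.39 (adjusted p = 0.00475) that was not called without LPS-stimulated 3xGrk-/- library 1 (0.28, adjusted p = 0.0898). Prkar2b, the other type II subunit, rose by 0.87 (adjusted p = 3.68e-09) and 0.90 (adjusted p = 1.67e-09) in WT and 3xGrk-/- cells. Pkib, which encodes an inhibitor of the PKA catalytic subunit, was at 26.3 ± 0.155, 29.9 ± 1.28, 60.3 ± 5.23 and 47.8 ± 1.12 CPM per kilobase in unstimulated WT, unstimulated 3xGrk-/-, LPS-stimulated WT and LPS-stimulated 3xGrk-/- cells. It rose with LPS by 1.20 in WT (adjusted p = 8.93e-17) and 0.67 in 3xGrk-/- cells (adjusted p = 3.03e-11), a difference of -0.52 (adjusted p = 5.66e-06).

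Of 14 A-kinase anchoring proteins, which tether PKA to places in the cell, 9 were tested. In unstimulated 3xGrk-/- cells 2 were higher and 1 lower (median -0.04), and after LPS 2 were higher and 3 lower (median 0.14), with 44.7% and 48.6% of all genes called. Akap13 rose with LPS by 1.31 in WT (adjusted p = 1.39e-19) and 0.70 in 3xGrk-/- cells (adjusted p = 2.08e-13), and the responses differed by -0.61 (adjusted p = 1.40e-08). Akap7 was higher in LPS-stimulated 3xGrk-/- cells by 1.16 (adjusted p = 1.36e-05). Among 5 other effectors and transporters, Abcc4, which exports cAMP, was lower in unstimulated 3xGrk-/- cells (-0.33, adjusted p = 0.00500) and higher after LPS (0.58, adjusted p = 0.000524), and its responses to LPS differed by 0.91 (adjusted p = 4.47e-05). DESeq2 did not call the unstimulated difference (adjusted p = 0.147).

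Upstream of the cyclases, 10 of 14 receptors coupled to the stimulatory G protein were tested. Vipr1 in both conditions and Hrh2 after LPS had enough reads in only 1 genotype, so the calls in this list are not counted either. Ptger2, a prostaglandin E2 receptor, had 11 and 11 counts in unstimulated WT, 31 and 33 in unstimulated 3xGrk-/-, 10 and 13 in LPS-stimulated WT and 61 and 96 in LPS-stimulated 3xGrk-/- libraries, with log2 fold changes of 1.52 (SE 0.334, adjusted p = 2.07e-05) and 2.79 (SE 0.290, adjusted p = 5.88e-08). Vipr1, a receptor for vasoactive intestinal peptide, went the other way, with 34 and 59 counts in unstimulated WT and 1 and 2 in unstimulated 3xGrk-/- libraries (ratio of WT over 3xGrk-/- 31.2, 95% counting interval 10.3 to 154) and a ratio of 5.43 (2.40 to 14.4) after LPS. The proton sensor Gpr65 was lower in 3xGrk-/- cells by a log2 fold change of -0.94 in both conditions (adjusted p = 3.79e-19 and 2.88e-09). The adenosine receptor Adora2a was higher in unstimulated 3xGrk-/- cells by a log2 fold change of 0.64 (adjusted p = 1.73e-17). From there it rose with LPS by 1.48 in 3xGrk-/- cells (adjusted p = 7.08e-18), against 2.21 in WT (adjusted p = 2.99e-21), a difference of -0.73 (adjusted p = 3.34e-07).

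Downstream, all 8 CREB family genes and coactivators were tested. In unstimulated 3xGrk-/- cells 1 was higher and 1 lower (median 0.07), and after LPS 1 was higher and 2 lower (median -0.06). Both lower genes had smaller LPS responses in 3xGrk-/- cells: Crem, which encodes a cAMP-responsive modulator and its repressor forms, rose by 1.52 in WT and 1.02 in 3xGrk-/- cells (difference -0.50, adjusted p = 0.000932), and the CREB coactivator gene Crtc2 rose by 1.18 in WT and differed in response by -0.72 (adjusted p = 2.23e-07). Of 12 genes known to respond to cAMP in many cells, 8 were tested unstimulated and 10 after LPS. Fos in both conditions and Areg after LPS had enough reads only in 3xGrk-/- cells, so these calls are not counted. Thbs1 was higher in 3xGrk-/- cells by 1.75 unstimulated and 2.78 after LPS (adjusted p = 3.92e-20). Fos had 7 and 13 counts in unstimulated WT and 65 and 50 in unstimulated 3xGrk-/- libraries. The orphan nuclear receptor gene Nr4a3 was lower, with log2 fold changes of -0.34 unstimulated and -1.48 after LPS (adjusted p = 3.83e-14). These genes also respond to signals other than cAMP, and cAMP itself was not measured.

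**Figure D5:**
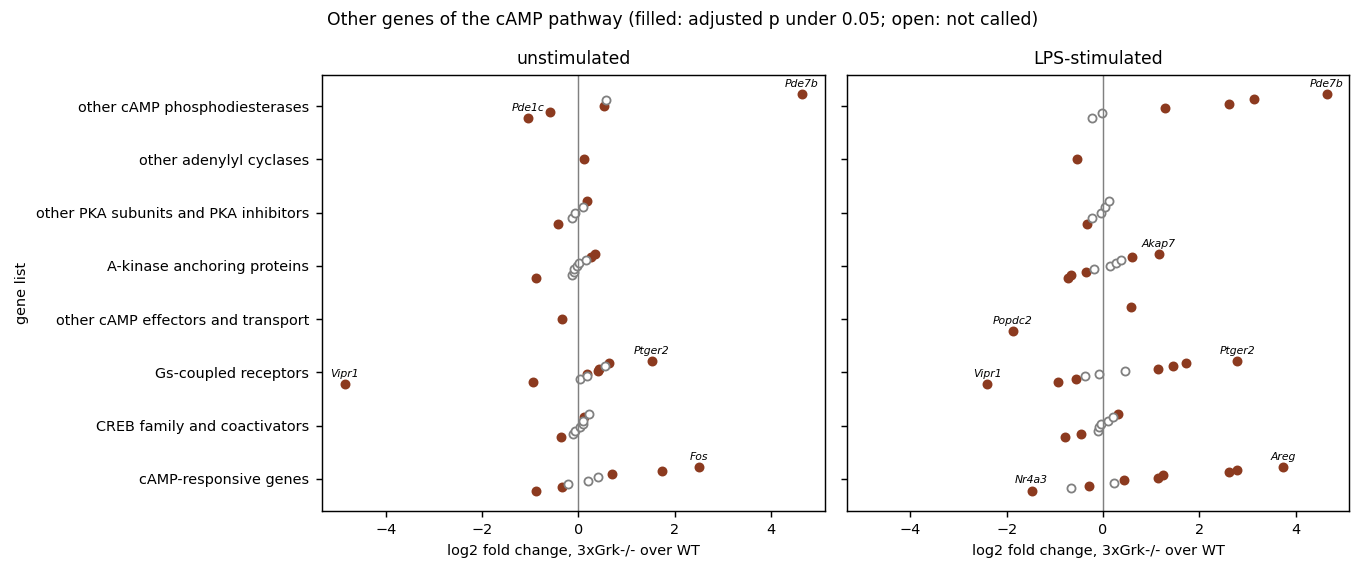
Log2 fold change of 3xGrk-/- over WT for the tested genes of each pathway list, unstimulated on the left and LPS-stimulated on the right, filled where the adjusted p was under 0.05, with the genes farthest from 0 named. Values of genes with few counts in a group, such as Pde7b and Vipr1, are fitted values that depend on a prior count.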

How the data were processed

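The authors aligned reads of stranded mRNA libraries to GRCm38 with STAR 2.7.3a within snakePipes 2.1.0 and deposited read counts per gene made with featureCounts 2.0.0, in one table for the unstimulated and one for the LPS libraries. The annotation release and the strand setting are not given in the sources used here. Of the 47937 gene IDs, 47224 matched a GENCODE M21 symbol with the ID version ignored. The 10 genes and all gene lists were chosen with earlier results of these data known. Genotype effects were fitted on the 4 libraries of a condition, and LPS responses and their difference on all 8, with edgeR 4.0.16 (R 4.3.3, TMM scaling, filterByExpr, glmQLFit and glmQLFTest), with p-values adjusted by Benjamini-Hochberg over all genes tested and called under 0.05. CPM are counts over TMM-scaled library sizes of the fit of all 8 libraries, and lengths are merged exons of GENCODE M21. Standard errors were the fitted log2 coefficient over the root of its F statistic. In each pathway list and comparison, the text may name up to 2 called genes with the largest change in each direction. For each member it names the 3 genes of highest Pearson correlation of log2 CPM with a prior count of 2. Counting intervals are exact 95% binomial intervals on pooled counts. The common biological coefficient of variation was 0.0306 in the unstimulated, 0.0573 in the LPS and 0.0463 in the joint fit. Replicate libraries differed by more than counting noise, so none was treated as a copy. Alternatives were DESeq2 1.42.0, scaling by RLE or by library size only, testing without a filter or with at least 10 counts in every library, the replicate number as a block, leaving out the 20 most abundant genes, a coefficient of variation of 0.4, leaving out each library, and another set of libraries in the fit. The scripts were tested on simulated data. Protein sequences were not used here.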

Additional observations from a re-analysis of the deposited data

Results flagged for a closer look

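These results were singled out because a test of the difference between the genotypes' responses to LPS, the interaction in the fit of all 8 libraries, passed at an adjusted p under 0.05 (edgeR). Among the 10 genes these were the cyclase gene Adcy7, with a difference of 0.29 on the log2 scale (its fall with LPS was smaller in 3xGrk-/- than in WT cells), and the PKA regulatory subunit gene Prkar1a, with -0.24 (its rise with LPS was smaller in 3xGrk-/- cells). Among the other phosphodiesterases named, the differences were -0.54 for Pde1b, 2.05 for Pde8b and 4.95 for Pde10a. After LPS, Pde8b and Pde10a had enough reads only in 3xGrk-/- cells, where they were high, which favours a difference, so their calls support nothing here. The value for Pde10a is a fitted one that depends on a prior count, since both unstimulated 3xGrk-/- libraries are at 0, and its call was lost in each of the 7 fits without 1 library in which it was tested (adjusted p from 0.0514 to 0.199). It was also lost with DESeq2 (adjusted p = 0.145), with the replicate block (adjusted p = 0.0587) and without a filter (adjusted p = 0.0749). The call for Pde8b was lost without unstimulated WT library 1 (adjusted p = 0.0826) and with DESeq2 (adjusted p = 0.0695). Adcy6 differed by -0.65, Prkar2a by 0.39 and Pkib by -0.52. Of the anchoring proteins, Akap7 differed by 1.20, Akap13 by -0.61 and Akap9 by -0.52, and the cAMP exporter gene Abcc4 by 0.91. Of the receptors, Ptgir differed by 1.02, Ptger4 by -0.74, Adora2a by -0.73 and Vipr1 by 2.44, the last with enough reads only in WT cells (1 and 2 counts in the unstimulated 3xGrk-/- libraries) and its call lost without 6 of the 8 libraries in turn, with DESeq2 (adjusted p = 0.138), with the replicate block (adjusted p = 0.0540) and without a filter (adjusted p = 0.0545). With a coefficient of variation of 0.4 each of the differences given here lost its call. Crtc2 differed by -0.72 and Crem by -0.50. Of the genes that respond to cAMP, Sik1 differed by 1.31, Thbs1 by 1.04 and Nr4a3 by -1.15.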

How the results depend on the processing

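The number of the 9 tested genes called was 3 (unstimulated), 4 (LPS), 6 (LPS response in WT), 6 (LPS response in 3xGrk-/-) and 2 (difference of the responses). With a coefficient of variation fixed at 0.4 these became 0, 0, 1, 0 and 0, with 0, 1, 1, 1 and 0 at an unadjusted p under 0.05. DESeq2 called 0 differences of the responses (2 at an unadjusted p under 0.05, 3 with edgeR). Without 1 library each, the counts ranged from 2 to 3, 4 to 4, 5 to 6, 5 to 6 and 1 to 3. For the difference of the responses, 1 was called without unstimulated WT library 1, unstimulated 3xGrk-/- library 1 or LPS-stimulated 3xGrk-/- library 1 or 2. Same-numbered libraries did not deviate together (correlations from -0.018 to 0.033), so the numbers were not taken as pairs. With the replicate block the counts were 3, 4, 6, 6 and 2, and the all-gene count moved from 5369 to 5292 unstimulated. The block turned the difference of the responses of Prkaca to -0.00013. With library size only, unstimulated genotype effects turned to -0.0086 for Pde4b, -0.0092 for Pde7a and -0.011 for Adcy7, and LPS responses to -0.057 for Adcy9 in WT and, in 3xGrk-/- cells, to -0.044 for Prkar1a and -0.089 for Adcy6. The coefficient of 0.4 turned Prkaca to -0.0055 in the difference of the responses. Without 1 library, uncalled values changed sign in 14 cases, with ranges of -0.078 to 0.018 for Pde4a unstimulated, -0.067 to 0.032 for Prkar1a after LPS, -0.20 to 0.12 for Pde8a and -0.43 to 0.82 for Adcy9 in the WT response, and in the difference of the responses -0.37 to 0.88 for Adcy9, -0.047 to 0.066 for Prkaca, -0.23 to 0.084 for Pde8a and -0.043 to 0.16 for Pde7a. Other than library size only turning Prkar1a and Adcy6 in 3xGrk-/- cells, no called value changed sign. RLE size factors, both filters, and leaving out the 20 most abundant genes changed no call of the 9 genes, nor did another set of libraries, which was not run for the difference of the responses. Over all genes, 5369 calls unstimulated became 3086 with DESeq2 and 448 with the coefficient of 0.4, which also gave 782 against 5754 after LPS, 1110 against 7561 and 850 against 6945 for the responses, and 72 against 4070 for their difference (DESeq2 2643). The causes were not tested. With 2 libraries a group and 17 to 66 counts per library for Adcy9 and 1 to 8 for Adcy3, depth limits these 2 cyclases most.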
